A study of Mus musculus with 14 samples.

Results

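The genes described here, followed in mice without Fhl2, encode transcription factors and related nuclear proteins that cells switch on within minutes of a stimulus: the orphan nuclear receptors Nr4a1, Nr4a2 and Nr4a3, the activator protein 1 (AP-1) subunits Fos, Fosb, Jun and Junb, and the early response genes Egr1, Ier2 and Atf3. They were chosen by name, because Fhl2, a LIM-domain protein, is a known cofactor of Nur77 (the product of Nr4a1) and of AP-1. Earlier results of these data were known when the choice was made. All 10 symbols matched 1 Ensembl identifier each, out of 33459 identifiers in the count table. The mice were C57BL/6, 21 weeks old, and all of them, controls included, had been kept on high fat diet for 8 weeks. Bulk mRNA was sequenced from 4 heart samples of FHL2-/- mice (KO) and 4 of wild-type mice (WT), and from gonadal white adipose tissue (gWAT), the fat depot beside the gonads, in 3 KO and 3 WT samples. The sources used here give neither the sex of the mice, nor the part of Fhl2 that was deleted, nor whether the 14 libraries stem from as many animals. The p-values therefore measure the spread between these samples, which may be technical.

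Immediate early genes need no new protein synthesis to be induced: kinase signals activate factors already bound at their promoters, among them serum response factor and CREB, and the transcripts appear and decay quickly. Fos and Jun proteins pair as AP-1 and bind matrix, inflammatory and cell cycle genes, and the Nr4a receptors are thought to act without a classical ligand and in muscle regulate genes of glucose and lipid use. In heart and fat the same genes respond to stretch, adrenergic signals, inflammation and the handling of tissue. In bulk tissue, fewer cells of a type and less RNA per cell cannot be told apart.

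Total counts ran from 10835092 to 13272412 in heart libraries and from 15105019 to 16040188 in gWAT libraries. Levels are given in CPM, counts relative to the size of the library, with the sizes scaled by edgeR's TMM factors over all 14 libraries. The tissue labels fitted the markers: the summed level of 8 cardiomyocyte genes was 45522 to 56212 CPM in KO hearts and 47098 to 54546 CPM in WT hearts, against no more than 26.9 CPM in any gWAT library. The summed level of 10 adipocyte genes was 15500 to 16489 CPM in KO gWAT and 9613 to 16465 CPM in WT gWAT, against no more than 519.6 CPM in any heart. Fhl2 transcript was at 33.5 to 44.3 CPM in KO hearts and 1205 to 1632 CPM in WT hearts, and at 0.208 to 0.376 CPM in KO gWAT and 3.61 to 4.99 CPM in WT gWAT. Samples are numbered 1 to 4 in heart and 1, 3 and 4 in gWAT, and values are listed in that order. The summed level of 6 atrial markers was higher in hearts numbered 1 and 2 than in hearts 3 and 4. It was 4816, 5262, 638 and 1077 CPM in KO hearts and 4508, 3730, 136 and 175 CPM in WT hearts. Not every marker followed this order. Bmp10 did in KO hearts (437, 397, 38.2 and 94.0 CPM) but not in WT hearts (214, 3.66, 0.812 and 16.5 CPM). Nppa, the atrial natriuretic peptide gene, was at 2343 and 2759 CPM in KO hearts 1 and 2 but at 245 and 577 CPM in KO hearts 3 and 4, and at 2311 and 1799 CPM in WT hearts 1 and 2 but at 87.5 and 80.2 CPM in WT hearts 3 and 4.

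The sequence before the transcription start was searched for 8 of the 10 genes, all but Egr1 and Ier2. It is shown for the 3 Nr4a genes, which share the largest number of matches, and for Fos and Atf3, which had the smallest p for genotype in gWAT. Each run reads 5′ to 3′ in the direction of transcription and covers the 250 bases before the RefSeq start on GRCm38.p6, stopping earlier where GENCODE annotates an exon. The capitals mark TGACG or its reverse complement CGTCA, the half-site of the cAMP response element that CREB and ATF proteins bind.
Nr4a1 (chr15:101266596-101266845, plus strand): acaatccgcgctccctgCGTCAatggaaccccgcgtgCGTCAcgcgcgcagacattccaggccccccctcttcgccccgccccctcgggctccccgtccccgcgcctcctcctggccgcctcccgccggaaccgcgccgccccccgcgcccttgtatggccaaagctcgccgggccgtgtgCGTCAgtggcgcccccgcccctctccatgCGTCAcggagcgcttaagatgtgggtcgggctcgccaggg
Nr4a2 (chr2:57124004-57124253, minus strand): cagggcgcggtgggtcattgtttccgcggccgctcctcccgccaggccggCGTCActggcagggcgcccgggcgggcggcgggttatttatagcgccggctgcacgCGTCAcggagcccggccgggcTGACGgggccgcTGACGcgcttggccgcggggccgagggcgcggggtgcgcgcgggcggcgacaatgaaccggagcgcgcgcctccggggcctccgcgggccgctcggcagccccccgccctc
Nr4a3 (chr4:48045055-48045152, plus strand): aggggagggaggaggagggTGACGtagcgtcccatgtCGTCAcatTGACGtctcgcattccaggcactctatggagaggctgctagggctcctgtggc
Fos (chr12:85473640-85473889, plus strand): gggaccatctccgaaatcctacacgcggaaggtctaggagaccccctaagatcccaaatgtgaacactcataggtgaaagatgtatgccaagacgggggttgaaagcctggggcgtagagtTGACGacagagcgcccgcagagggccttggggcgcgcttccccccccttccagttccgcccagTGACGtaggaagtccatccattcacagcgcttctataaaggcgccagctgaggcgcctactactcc
Atf3 (chr1:191183341-191183583, minus strand): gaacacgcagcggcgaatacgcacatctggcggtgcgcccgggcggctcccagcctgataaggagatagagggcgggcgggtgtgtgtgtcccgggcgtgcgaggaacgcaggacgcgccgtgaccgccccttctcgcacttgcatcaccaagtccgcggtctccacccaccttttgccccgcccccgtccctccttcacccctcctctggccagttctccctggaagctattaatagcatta
Nr4a1, Nr4a2 and Nr4a3 each held 4 half-sites in the 250 bases, a number reached by 0.14% of 32851 mouse promoters of that length. For Nr4a3, 3 of the 4 are in the bases shown. Fos held 2, and the single one of Atf3 lies in the 7 bases that GENCODE counts as exon and that are not shown. Of the 8 promoters 7 held at least 1 half-site, against 17.8% of all promoters, with Jun the exception. The whole element TGACGTCA (1.55% of all promoters), the AP-1 site TGACTCA (4.46%), the Nr4a response element AAAGGTCA (1.34%) and the CArG box bound by serum response factor (1.47%) were in 0 of the 8, on either strand. These counts say nothing of Egr1, a gene induced through serum response factor, or of Ier2, which were not searched. The CCAAT box was searched as well and was in Jun and Junb, against 33.8% of all promoters. A match is a match of letters only, and these windows do not reach elements farther upstream. The windows of Nr4a1 and Atf3 lie inside the spans that GENCODE gives these genes, which begin upstream at 101254269 for Nr4a1 and 191218039 for Atf3. Starts farther upstream in these 2 genes were not searched.

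In gWAT, Atf3 was the 1 gene of the 10 that passed the test for genotype, and it fell. Atf3, a stress-induced member of the ATF/CREB family that pairs with Jun proteins and often represses its targets, had 19.5, 15.1 and 22.1 CPM in KO gWAT and 32.4, 124.3 and 81.3 CPM in WT gWAT. The KO values were close together and all under the WT values, which were far apart. The means were 18.9 ± 3.54 CPM in KO and 79.3 ± 46.0 CPM in WT (SD, n = 3 each), on 1080 and 4725 reads. The log2 fold change, KO over WT, was −2.08 ± 0.433 (standard error), a 4.22-fold lower level, with an adjusted p of 0.0362 by edgeR's quasi-likelihood test with Benjamini-Hochberg adjustment over all 15200 genes tested. A gene is said to have risen, fallen or passed where this adjusted p is under 0.05, and 5.49% of all tested genes passed in gWAT, 2.01% higher and 3.48% lower in KO. A count of 1 in 10 genes is near this background, and Atf3 stood at rank 521 by p. Atf3 (ENSMUSG00000026628, chromosome 1, 191170296 to 191218039, minus strand, GRCm38) is 148 Mb from Fhl2 on the same chromosome.

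The Atf3 call was close to the threshold. Its adjusted p was 0.0678 with limma-voom, 0.0687 when WT replicate 3 was left out and 0.139 when WT replicate 4 was. It was 0.131, 0.128 and 0.12 when KO replicate 1, 3 or 4 was left out, with log2 fold changes between −1.59 and −2.20 in these fits. Without WT replicate 1, the lowest WT library, it was −2.46 (adjusted p = 0.000142).

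Markers of fat macrophages moved in the same direction as Atf3. The summed level of 12 lipid-associated macrophage markers was 10302 to 11355 CPM in KO gWAT and 13813 to 15886 CPM in WT gWAT, with 9 of 12 lower, 0 higher and a median log2 fold change of −1.97. The summed level of 12 general macrophage markers was 1376 to 1568 CPM in KO gWAT and 1742 to 3641 CPM in WT gWAT, with 5 lower and 1 higher. None of these markers was at 0 in any gWAT library. WT replicate 1, the lowest WT library for Atf3, was the lowest WT library for the summed general markers (1742 CPM). For the lipid-associated markers its place depended on the measure. It was the highest WT library by their sum (15886 CPM). By their mean log2 of CPM plus 1 it was the lowest, at 7.329, against 8.674 and 8.405 in WT replicates 3 and 4. Markers of other cells differed as well. The summed level of 6 mesothelial markers was 252 to 419 CPM in KO gWAT and 91.8 to 203 CPM in WT gWAT, with 3 of 6 higher and 0 lower. Of 9 tested adipocyte markers 3 were higher and 0 lower (median 0.49), and their summed levels, given above, overlapped. The summed level of 8 neutrophil markers was 6.19 to 7.97 CPM in KO gWAT and 13.4 to 22.7 CPM in WT gWAT, with up to 4 of the 8 at 0 in a library and neither of the 2 tested past the threshold. Beside these marker counts, 3.48% of all tested genes were lower and 2.01% higher in KO gWAT. The part of any of these cells in the Atf3 value was not tested.

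Fos, the AP-1 subunit that cannot bind DNA without a partner such as Jun, had the next smallest p in gWAT. It was at 44.3, 26.5 and 41.8 CPM in KO gWAT and 38.4, 82.5 and 83.8 CPM in WT gWAT. WT replicates 3 and 4 were above all KO libraries, while WT replicate 1 lay among them. The log2 fold change was −0.87 ± 0.315 and did not pass (adjusted p = 0.143 by edgeR). Without WT replicate 1 it was −1.16 (adjusted p = 0.00372), and it also passed with DESeq2 (adjusted p = 0.0454) and without a filter on low counts (adjusted p = 0.0341).

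The other 8 genes did not pass in KO gWAT, and their groups overlapped. Egr1, a zinc finger factor induced through serum response factor, was at 75.0, 39.9 and 57.1 CPM in KO gWAT and at 41.3, 44.3 and 40.6 CPM in WT gWAT. Its KO libraries ran from below the WT libraries to well above them, and the log2 fold change was 0.45 ± 0.203 (adjusted p = 0.236 by edgeR). Jun, the DNA-binding partner of Fos, was at 52.8, 47.0 and 54.4 CPM in KO gWAT and 44.3, 57.6 and 44.5 CPM in WT gWAT (0.07 ± 0.137, adjusted p = 0.793 by edgeR).

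The 3 receptors showed no call in gWAT either. Nr4a1, which encodes Nur77, was at 20.1, 9.67 and 14.6 CPM in KO gWAT and 10.8, 10.9 and 18.8 CPM in WT gWAT (0.13 ± 0.303). Nr4a2, which encodes Nurr1, was at 1.93, 2.76 and 2.55 CPM in KO gWAT and 2.29, 1.30 and 2.39 CPM in WT gWAT (0.28 ± 0.293). Nr4a3, which encodes NOR1, was at 1.29, 3.17 and 2.60 CPM in KO gWAT and 0.745, 1.99 and 1.95 CPM in WT gWAT (0.57 ± 0.448, 135 and 93 reads). The libraries of KO and WT interleaved for all 3 receptors, and Nr4a2 and Nr4a3 rest on 93 to 138 reads per group.

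Fosb, a Fos relative that accumulates with repeated stimulation in the brain, was at 7.25, 2.96 and 6.51 CPM in KO gWAT and 2.81, 4.34 and 7.07 CPM in WT gWAT (0.22 ± 0.407). Junb, a Jun relative with weaker activating function, had 32.3, 23.2 and 19.0 CPM in KO gWAT and 17.6, 35.4 and 27.0 CPM in WT gWAT (−0.11 ± 0.278). Ier2, a nuclear protein induced with the others, had 18.9, 14.1 and 14.01 CPM in KO gWAT and 9.97, 17.9 and 15.6 CPM in WT gWAT (0.11 ± 0.231). In each of these 3 genes WT replicate 1 was the lowest WT library and KO replicate 1 the highest KO library. Junb overlaps Prdx2, a gene on the other strand with up to 2186 reads in a library, and Jun overlaps the antisense gene Junos, with up to 22 reads. Whether the counting used strand is not stated, so the Junb and Jun values are uncertain. Over the 10 genes in gWAT, 7 fold changes were positive and 3 negative, with a median log2 fold change of 0.12, against 9.32e-05 for all tested genes. Groups did not overlap for 1 of the 10, Atf3, against 27.6% of all tested genes. An unadjusted p under 0.05 was reached by 2 of the 10, Atf3 and Fos, against 23.1% of all genes.

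**Figure D1:**
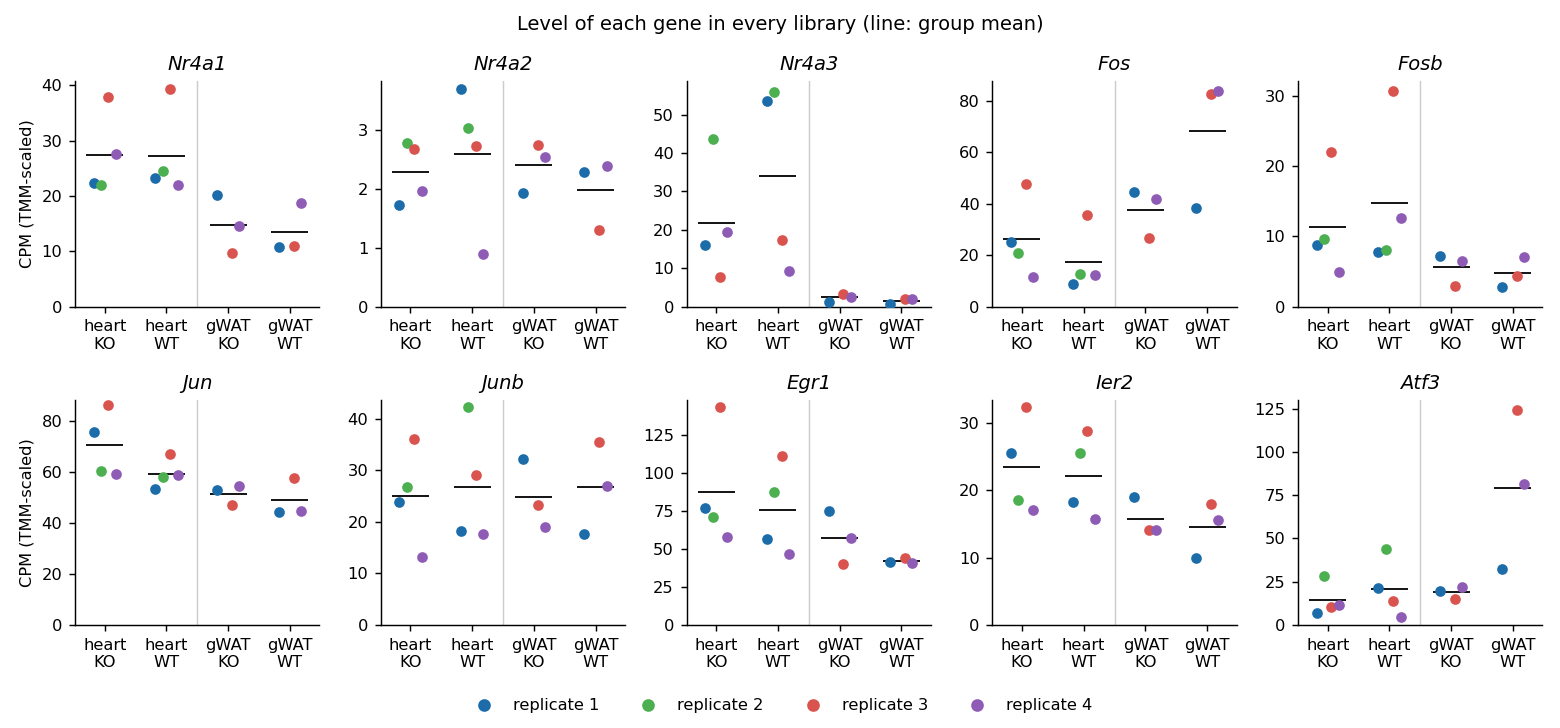
CPM (linear axis from 0, own scale for each gene) of the 10 genes, 1 point per library coloured by replicate number, with KO left of WT in heart (n = 4 each) and in gWAT (n = 3 each) and a line at each group mean. The 3 KO gWAT points of Atf3, 15.1 to 22.1 CPM, sit below the 3 WT points, 32.4 to 124.3 CPM, while KO and WT points overlap for all 10 genes in heart.

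In heart, none of the 10 genes passed (0 of 10, with 0 of 10 also at an unadjusted p under 0.05 by edgeR, against 3.2% of all genes, and 0 called by DESeq2 or limma-voom). In the heart 0.00706% of all 14159 tested genes passed, which is Fhl2 alone, and every adjusted p of the 10 was 1. The fold changes were 5 positive and 5 negative, with a median log2 fold change of −0.05, against −0.00302 for all tested genes. KO and WT libraries overlapped for each of the 10, against 2.38% of all tested genes without overlap. A miss does not show equal levels, since the standard errors of the 10 values ran from 0.125 to 0.58 on the log2 scale.

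On the log2 scale, the fold changes farthest from 0 in heart were those of Nr4a3, Fos and Atf3. Nr4a3 was at 16.2, 43.7, 7.70 and 19.4 CPM in KO hearts 1 to 4 and at 53.6, 56.0, 17.3 and 9.32 CPM in WT hearts 1 to 4 (log2 fold change −0.67 ± 0.58). Atf3 was at 7.03, 28.2, 10.4 and 11.7 CPM in KO hearts and at 21.4, 44.1, 13.8 and 4.56 CPM in WT hearts (−0.57 ± 0.575). For both, WT hearts 1 and 2 and KO heart 2 were the highest libraries and WT heart 4 and KO hearts 1 or 3 were among the lowest, so genotypes overlapped throughout.

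Fos, in contrast, was at 25.1, 20.7, 47.7 and 11.5 CPM in KO hearts and 8.61, 12.8, 35.6 and 12.4 CPM in WT hearts (0.61 ± 0.474). Heart 3 was the highest of its genotype in both groups. Fosb was at 8.76, 9.68, 22.1 and 4.94 CPM in KO hearts and 7.84, 8.13, 30.8 and 12.6 CPM in WT hearts (−0.37 ± 0.502), again with heart 3 the highest of both genotypes.

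Egr1 had 76.8, 71.0, 142.9 and 57.6 CPM in KO hearts and 56.7, 87.2, 110.8 and 46.7 CPM in WT hearts (0.21 ± 0.31). Nr4a1 had 22.4, 21.9, 37.9 and 27.5 CPM in KO hearts and 23.2, 24.6, 39.3 and 21.9 CPM in WT hearts (0.01 ± 0.215). Heart 3 led in both genotypes for these genes too. Jun was the steadiest, with 75.7, 60.4, 86.1 and 59.2 CPM in KO hearts and 53.2, 57.8, 67.0 and 58.6 CPM in WT hearts (0.25 ± 0.125).

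Ier2 was at 25.6, 18.5, 32.3 and 17.1 CPM in KO hearts and 18.3, 25.5, 28.7 and 15.8 CPM in WT hearts (0.09 ± 0.23). Junb was at 23.9, 26.7, 36.01 and 13.2 CPM in KO hearts and 18.3, 42.3, 29.1 and 17.6 CPM in WT hearts (−0.11 ± 0.32). Nr4a2 was at 1.73, 2.78, 2.69 and 1.98 CPM in KO hearts and 3.70, 3.04, 2.74 and 0.892 CPM in WT hearts (−0.19 ± 0.366, 95 and 113 reads). Heart 4 was the lowest or next to lowest library of its genotype for Ier2, Junb and Nr4a2.

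**Figure D2:**
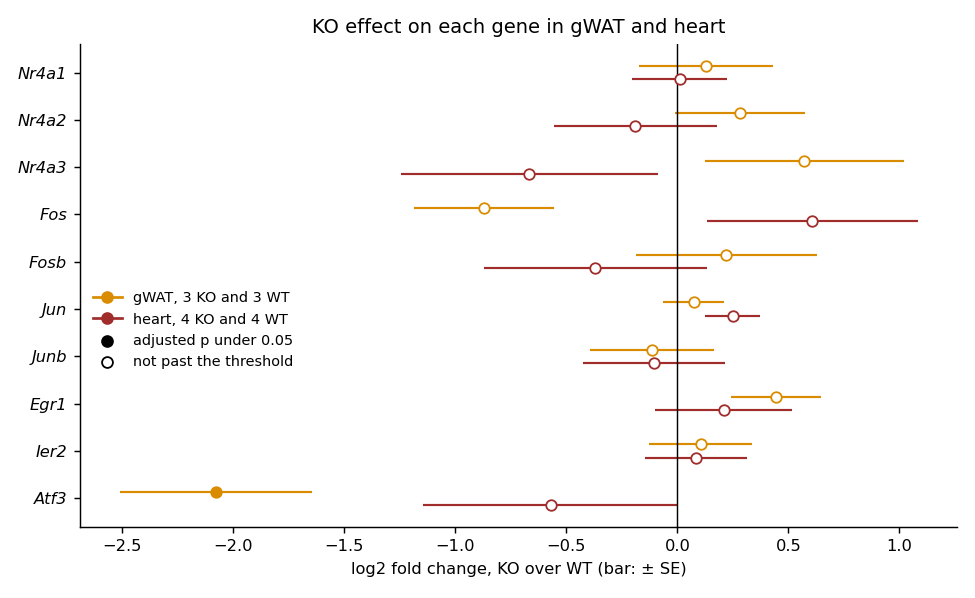
Log2 fold change, KO over WT, for the 10 genes in heart and in gWAT, with bars of 1 standard error, filled points for values that passed and open points for the others. Atf3 in gWAT, at −2.08 ± 0.433, is the 1 value that passed, and in heart values lie between −0.67 and 0.61.

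Whether the genotype difference itself differed between the tissues was tested as an interaction in 1 fit of all 14 libraries. None of the 10 passed (0 of 10 by edgeR, 1 of 10 at an unadjusted p under 0.05, 0 by DESeq2 and 0 by limma-voom), where 1.15% of 16014 tested genes did (0.362% higher, 0.787% lower) and 15.2% had an unadjusted p under 0.05. The difference, gWAT effect minus heart effect on the log2 scale, was −1.47 ± 0.659 for Fos (adjusted p = 0.304 by edgeR) and −1.50 ± 0.821 for Atf3 (adjusted p = 0.414). For Nr4a3 it was 1.23 ± 0.988 (adjusted p = 0.6). The fall of Atf3 in gWAT is therefore not shown to differ from its value in heart.

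Nearly all of the 10 genes varied more between libraries of 1 group than most genes did. In heart, the SD of log2 CPM around the group means was 1.15 for Nr4a3, 1.12 for Atf3, 0.891 for Fosb and 0.857 for Fos, against a median of 0.179 over all genes tested. All 10 were above that median, and 7 of 10 stood at or above the 90th percentile of all genes. Jun was the lowest of them, with an SD of 0.21 at percentile 58.8. In gWAT, Atf3 (0.748), Nr4a3 (0.714), Fosb (0.68) and Fos (0.554) again had the widest spread, against a median of 0.212. There 9 of 10 were above the median and 4 of 10 at or above the 90th percentile of all genes, and Jun (0.187, percentile 43.3) was below it. Rare genes vary more by counting alone, so each gene was also placed among the 500 genes nearest to it in level, where 8 of 10 stood at or above the 90th percentile in heart and 8 of 10 in gWAT.

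**Figure D3:**
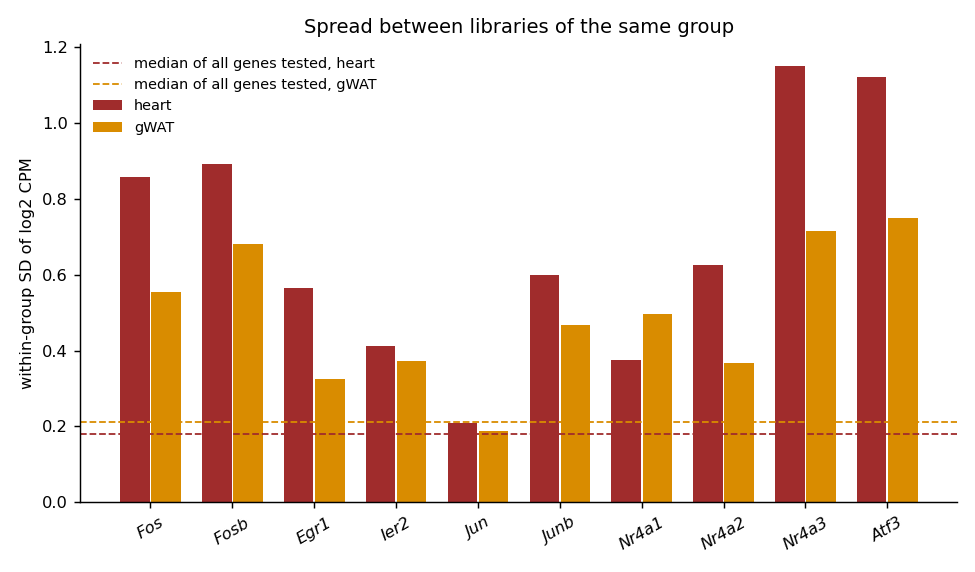
Bars of the within-group SD of log2 CPM for the 10 genes in heart and gWAT, with dashed lines at the median over all genes tested in each tissue (0.179 in heart, 0.212 in gWAT). Nr4a3 and Atf3 lie highest in both tissues, and Jun lies nearest to the lines.

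Within heart the genes did not vary as 1 block. Deviations from the group means were alike for Fos and Fosb (Pearson r = 0.96) and for Egr1 and Ier2 (r = 0.96), which were high in heart 3 of both genotypes. Nr4a3 and Atf3 were alike as well (r = 0.86) but went with neither, and Nr4a3 ran against Fos (r = −0.50) and Jun (r = −0.66). In gWAT the closest pairs were Junb with Ier2 (r = 0.96), Nr4a1 with Fosb (r = 0.93) and Fos with Atf3 (r = 0.91), while Nr4a2 ran against Jun (r = −0.86). These values are descriptions over 8 heart and 6 gWAT libraries, in which 2 genes share each library's RNA, depth and scaling.

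Averaged over the 10 genes, KO hearts 1 to 4 stood at −0.14, 0.17, 0.37 and −0.41 log2 units from their group mean, and WT hearts 1 to 4 at −0.07, 0.33, 0.40 and −0.65. Heart 3 was the highest and heart 4 the lowest of both genotypes. KO gWAT libraries 1, 3 and 4 stood at 0.14, −0.22 and 0.08, and WT gWAT libraries 1, 3 and 4 at −0.49, 0.22 and 0.27. The high level of the set in heart 3 stands in hearts low in Nppa, and heart 4, which is also low in Nppa, had the set at its lowest. With the atrial level as a covariate, an alternative chosen after seeing the data, 0 of the 10 genes passed in heart.

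**Figure D4:**
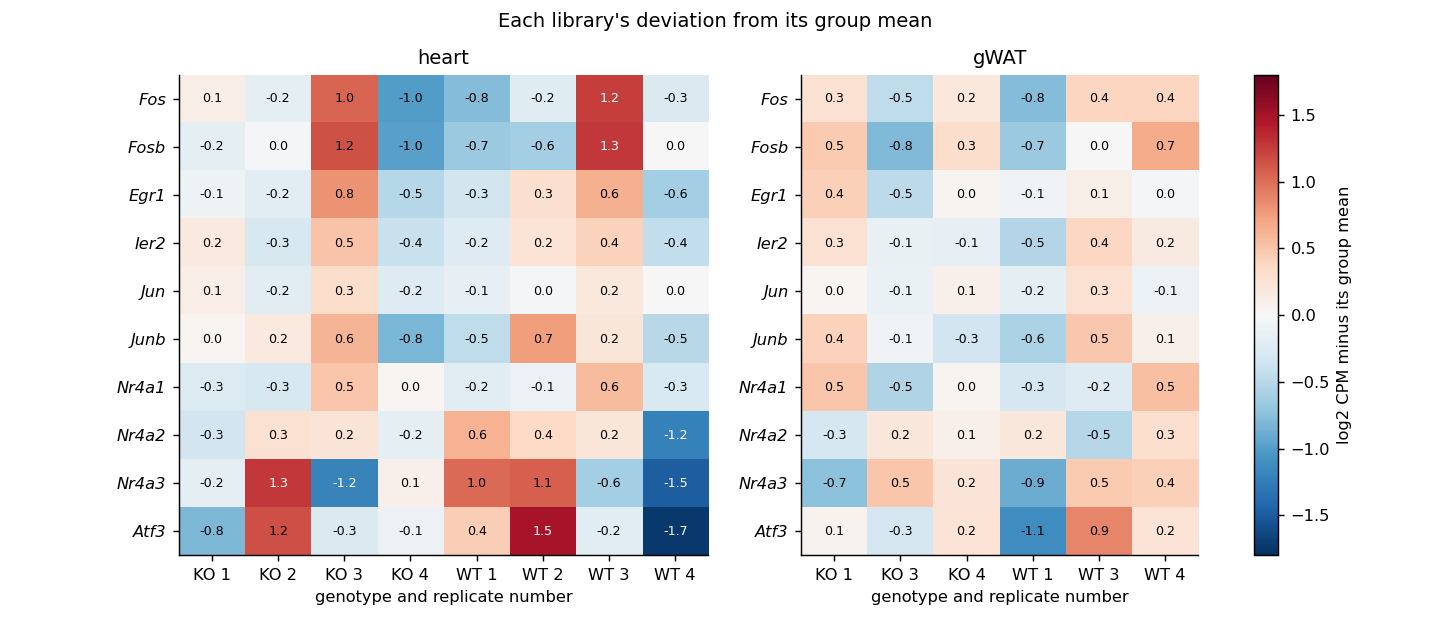
Deviation of each gene's log2 CPM from its group mean, coloured and printed in log2 units with 1 column per library and 1 row per gene, with KO libraries left of WT libraries in each tissue. Heart 3 is above its group mean for most genes in both genotypes, Nr4a3 and Atf3 follow another pattern, and WT gWAT replicate 1 is below its group mean for most genes.

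By the same measure, the genes whose deviations were most like the average of the 10 were not other early genes. In heart these were Elmsan1 (r = 0.97), Necap1 (0.948), Eogt (0.946), Rnf41 (0.918) and Snrnp40 (0.917), over 8 libraries and 8725 genes compared. In gWAT they were Cstb (r = 0.999), AB124611 (0.998), Trrap (0.993), Smu1 (0.992) and Zfp182 (0.991), over 6 libraries and 9641 genes. No list used here held any of these genes. With 8725 or 9641 genes compared over 8 or 6 libraries, r values this high can arise by chance. The ranking therefore does not set these genes apart from other early genes, whose r values are not given here.

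Between the tissues, WT heart against WT gWAT, 7 of the 10 genes differed, where 70.5% of all 16014 tested genes did, 33.9% higher and 36.6% lower in heart, and 72.6% had an unadjusted p under 0.05, as did 7 of the 10. Nr4a3, Fosb, Nr4a1, Egr1 and Ier2 were higher in heart, and Fos and Atf3 were lower. Nr4a3 had the largest difference: the 4 WT hearts, at 9.32 to 56.0 CPM, lay above the 3 WT gWAT libraries, at 0.745 to 1.99 CPM (log2 difference 4.42 ± 0.729, adjusted p = 5.92e-05 by edgeR). Nr4a1 was at 21.9 to 39.3 CPM in WT hearts and 10.8 to 18.8 CPM in WT gWAT, without overlap (1.01 ± 0.286, adjusted p = 0.00532). For Fos the order was the other way, with 8.61 to 35.6 CPM in WT hearts and 38.4 to 83.8 CPM in WT gWAT (−1.99 ± 0.47, adjusted p = 0.00135).

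Fosb (1.63 ± 0.548, adjusted p = 0.0152 by edgeR) and Egr1 (0.84 ± 0.319, adjusted p = 0.0281) also did not overlap. Ier2 (0.60 ± 0.255, adjusted p = 0.0461) and Atf3 (−1.91 ± 0.562, adjusted p = 0.00671) passed although their libraries overlapped, Atf3 with 4.56 to 44.1 CPM in WT hearts and 32.4 to 124.3 CPM in WT gWAT. Groups did not overlap for 5 of the 10, against 68.9% of all tested genes. Nr4a2 (0.39 ± 0.36), Jun (0.28 ± 0.138) and Junb (0.01 ± 0.339) did not pass.

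The call of Nr4a3 as higher in heart and of Fos and Atf3 as lower held in all 21 alternative fits. The call of Nr4a1 held in 20 of them, that of Fosb in 18, of Egr1 in 15 and of Ier2 in 13. These tallies include fits that left out a KO library. KO libraries enter this contrast through the shared filter, scaling and estimate of spread only, so such fits hardly move the difference. Nr4a3, for 1, was at 4.424 without KO heart 1 and 4.425 without KO gWAT replicate 4. With library totals in place of scaling factors the median log2 difference of all genes was −0.61 in place of −0.03. Nr4a3, Fos and Atf3 were then the only ones of the 10 to pass, and Jun (−0.31), Junb (−0.58) and Nr4a2 (−0.16) changed sign. Without WT heart 3 or without WT gWAT replicate 1, 4 of the 10 passed, because Fosb, Egr1 and Ier2 lost the call (Fosb adjusted p = 0.0805 and 0.0581).

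**Figure D5:**
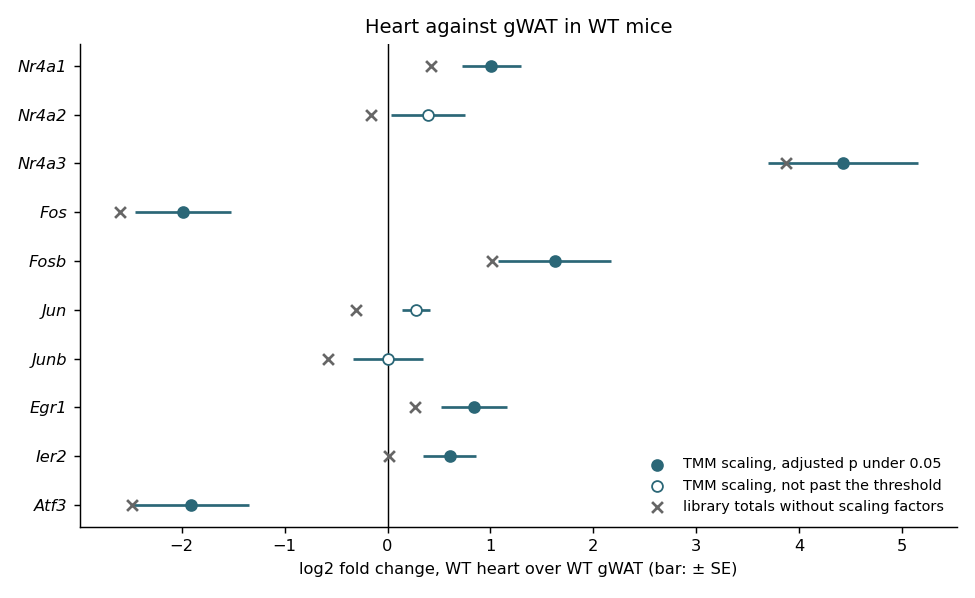
Log2 difference, WT heart over WT gWAT, for the 10 genes with bars of 1 standard error and filled points for values that passed, and crosses for the values from library totals without scaling factors. Nr4a3 at 4.42 stands far to the heart side and Fos at −1.99 and Atf3 at −1.91 to the gWAT side under both scalings.

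To compare genes with each other, levels were divided by exon length and are given in CPM per kb of exon. In KO gWAT the order was led by Jun (16.1 ± 1.23), Fos (15.95 ± 4.09), Egr1 (12.8 ± 3.92) and Junb (10.8 ± 2.96), with Atf3 at 8.79 ± 1.64, while in WT gWAT it was led by Atf3 (36.8 ± 21.3) and Fos (29.0 ± 10.99), ahead of Jun (15.3 ± 2.39) and Junb (11.6 ± 3.87). Atf3 and Fos were above Jun in WT gWAT on average, but WT replicate 1 had both within the range of Jun over the 3 WT libraries. Ier2 (10.3 ± 1.84 in KO, 9.51 ± 2.67 in WT) lay close to Egr1 (9.38 ± 0.435 in WT), and Fosb was low (0.893 ± 0.367 in KO, 0.759 ± 0.346 in WT). Nr4a1 (4.22 ± 1.49 in KO, 3.84 ± 1.30 in WT) was the leading receptor in gWAT, ahead of Nr4a2 (0.595 ± 0.106 in KO, 0.491 ± 0.149 in WT) and Nr4a3 (0.393 ± 0.161 in KO, 0.261 ± 0.118 in WT).

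In heart the order was Jun (22.1 ± 4.05 in KO, 18.5 ± 1.801 in WT), Egr1 (19.4 ± 8.49 in KO, 16.8 ± 6.52 in WT), Ier2 (15.4 ± 4.603 in KO, 14.5 ± 3.98 in WT) and then, in KO hearts, Fos (11.2 ± 6.55) before Junb (10.8 ± 4.07), against Junb (11.7 ± 5.02) before Atf3 (9.74 ± 7.85) in WT hearts. Neighbours in this order lay within 1 SD of each other. The receptors came lower, Nr4a1 at 7.81 ± 2.11 in KO and 7.76 ± 2.31 in WT, Nr4a3 at 3.63 ± 2.58 in KO and 5.69 ± 4.05 in WT, and Nr4a2 at 0.566 ± 0.128 in KO and 0.639 ± 0.296 in WT. Nr4a2 was the least abundant per kb in heart, and Nr4a3 in gWAT.

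Of the other AP-1 family subunits, the Fos, Jun, Batf, Jdp and Maf relatives that can enter such dimers, 0 of 12 tested passed in gWAT by edgeR, against 5.49% of all tested genes. DESeq2 called 3 lower and limma-voom 0, and the median log2 fold change was −0.10. An unadjusted p under 0.05 by edgeR was reached by 4 of the 12, against 23.1% of all genes. Fosl1, the Fos relative Fra-1, was at 0.630 ± 0.134 CPM in KO and 1.59 ± 0.458 CPM in WT (−1.33 ± 0.343, adjusted p = 0.0612). Maff, a small Maf protein, was at −0.62 ± 0.163 (adjusted p = 0.0652). Mafk had the opposite sign (0.36 ± 0.143, adjusted p = 0.175).

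Of 35 other immediate early genes tested in gWAT, 2 fell and 0 rose by edgeR, near the 3.48% of all tested genes that fell, with a median of −0.25. DESeq2 called 4 lower and 2 higher and limma-voom 0 in either direction, and the count of lower genes by edgeR was 10 when WT replicate 1 was left out and 0 when any other library was. Rgs2, a regulator of G protein signalling, was at 15.3 ± 3.33 CPM in KO and 34.8 ± 9.88 CPM in WT (−1.20 ± 0.245, adjusted p = 0.0352 by edgeR). Npas4, an activity-induced factor known from neurons, also fell (−3.15 ± 0.675, adjusted p = 0.0383), on 23 reads in KO and 215 in WT libraries. Zfp36l1 (0.43 ± 0.108, adjusted p = 0.0576) and Ier3 (0.67 ± 0.179, adjusted p = 0.0689) did not pass.

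Of 24 kinases and factors upstream of these genes, 0 passed in gWAT by edgeR, DESeq2 or limma-voom, against 5.49% of all tested genes by edgeR. In this list 8 had an unadjusted p under 0.05 by edgeR, against 23.1% of all genes. Nearest were Mrtfb (−0.55 ± 0.183, adjusted p = 0.118), Map2k1 (−0.25 ± 0.0881, adjusted p = 0.139), Mapk9 (0.31 ± 0.112, adjusted p = 0.139) and Atf2 (0.36 ± 0.131, adjusted p = 0.146). Of 15 partners of the receptors and AP-1, 2 fell and 0 rose by edgeR, where 3.48% of all tested genes fell and 2.01% rose. Fhl2, the removed gene, is 1 of the 2 (−3.78 ± 0.314, adjusted p = 0.0101). The other was its relative Fhl3, at 3.19 ± 0.0769 CPM in KO and 11.1 ± 4.87 CPM in WT (−1.81 ± 0.348, adjusted p = 0.0306). The count of lower partners, Fhl2 included, was 2 by DESeq2, 1 by limma-voom and 0 to 4 when single libraries were left out. The glucocorticoid receptor Nr3c1 (0.45 ± 0.143, adjusted p = 0.105) did not pass. The median of the partners was 0.16.

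Among 14 tested genes known as AP-1 targets, 6 fell and 1 rose in KO gWAT, with a median log2 fold change of −0.98. Of all tested genes 3.48% fell and 2.01% rose. An unadjusted p under 0.05 by edgeR was reached by 12 of the 14, against 23.1% of all genes. The list was chosen with earlier results of these data known, so these counts are a description and no independent test of AP-1 targets. Hmox1, heme oxygenase 1, was at 43.8 ± 3.72 CPM in KO and 100.8 ± 1.64 CPM in WT (−1.20 ± 0.102, adjusted p = 0.0101 by edgeR). Spp1, osteopontin, was at 3.20 ± 0.693 CPM in KO and 43.1 ± 22.6 CPM in WT (−3.76 ± 0.474, adjusted p = 0.0185) and is also a lipid-associated macrophage marker. The matrix genes Mmp3 (−1.66 ± 0.239), Timp1 (−1.72 ± 0.337) and Mmp13 (−2.51 ± 0.52, 19 reads in KO and 113 in WT) and the cell cycle gene Ccnd1 (−0.89 ± 0.181) fell too.

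The gene of that list that rose was Mmp9, a gelatinase, at 3.40 ± 0.214 CPM in KO and 1.496 ± 0.307 CPM in WT (1.18 ± 0.236, adjusted p = 0.0334 by edgeR). The count of 6 lower became 11 when WT replicate 1 was left out, 3 when WT replicate 3 was or with limma-voom, and 10 with DESeq2. It became 0 when WT replicate 4 or any 1 KO replicate was left out, where no gene of the whole table passed in gWAT by edgeR. The macrophage marker values given beside Atf3 moved with this list as well, and their part in it was not tested. Of 10 genes named as Nr4a targets in muscle, 1 fell and 0 rose by edgeR, where 3.48% of all tested genes fell and 2.01% rose. It was Ucp2, a mitochondrial carrier, at 261 ± 18.8 CPM in KO and 617 ± 155 CPM in WT (−1.25 ± 0.202, adjusted p = 0.0253). Slc2a4, the glucose transporter GLUT4 (0.73 ± 0.185, adjusted p = 0.0594), Pygm (0.55 ± 0.227, adjusted p = 0.191) and Prkag3 (0.38 ± 0.184, adjusted p = 0.259) did not pass, and the median was 0.08.

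In heart the same lists held no call besides Fhl2 (−5.14 ± 0.141, adjusted p = 1.99e-08 by edgeR), and DESeq2 and limma-voom gave none either. The medians of the log2 fold changes were −0.10 for 9 other AP-1 subunits, −0.08 for 33 other immediate early genes, −0.02 for 24 upstream factors, −0.05 for 14 partners, −0.20 for 14 AP-1 targets and −0.03 for 10 Nr4a targets, with 1, 5, 0, 1, 3 and 0 genes at an unadjusted p under 0.05, against 3.2% of all genes tested in heart. All of the following had an adjusted p of 1 by edgeR. Sik1, a salt-inducible kinase, was at 36.4 ± 3.50 CPM in KO hearts and 48.4 ± 3.45 CPM in WT hearts (−0.41 ± 0.0861, SD with n = 4 each). The values nearest after it among the early genes were Csrnp1 (−0.46 ± 0.149), Arc (−0.85 ± 0.328) and Errfi1 (−0.36 ± 0.145).

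Among the AP-1 relatives in heart, Fosl2, the Fos relative Fra-2, was at 36.1 ± 3.47 CPM in KO and 49.7 ± 13.2 CPM in WT (−0.47 ± 0.163), and Maff (−0.36 ± 0.199), Mafg (−0.13 ± 0.0732) and Jdp2 (−0.23 ± 0.199) were next. Among the targets these were Hmox1 (−0.97 ± 0.328), the chemokine Ccl2 (−1.60 ± 0.6), Ccnd1 (−0.23 ± 0.102) and Plaur (−0.51 ± 0.302). Upstream factors and partners were nearer to 0, Creb1 at −0.16 ± 0.0834 and Crtc1 at 0.20 ± 0.112 among the factors and Ep300 at −0.11 ± 0.0658 among the partners. The same held for Nr4a targets such as Eno3 (−0.18 ± 0.0895) and Phka1 (−0.13 ± 0.103).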

How the data were processed

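The authors deposited 1 table of raw counts, whole numbers of reads per Ensembl gene and library with no normalisation. Per the labels' protocols, tissue was flash frozen, RNA came from Trizol, and the Kapa mRNA Hyperprep kit was used. Per the submitters' processing notes, with no role or order, the tools were HTSeq 0.11.0, HISAT2 2.1.0, Trimmomatic 0.32, limma, Picard and FastQC, and the build was mm10. Annotation release, strand setting and filters were not given in the sources used here.

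Of 33459 identifiers, 33406 had a symbol and 2812 were at 0 throughout, and 0 columns lacked a sample. Analyses used R 4.3.3, edgeR 4.0.16, limma 3.58.1, DESeq2 1.42.0, Python 3.11.15, pandas 2.3.3 and matplotlib 3.10.9, and were tested on simulated data. Genes were filtered with filterByExpr, scaled with TMM within each tissue and tested with edgeR's quasi-likelihood F test on the whole table. The tissue and interaction contrasts used 1 fit of all 14 libraries. The standard error is the absolute log2 fold change divided by the square root of F. Printed CPM use TMM factors over all 14 libraries, so a ratio of printed means differs slightly from the fold change. Exon lengths and positions come from GENCODE M21 (GRCm38), promoters from RefSeq (GRCm38.p6).

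The 10 genes and the lists were chosen with earlier results of these data known. Named are the 10 genes, Fhl2, up to 4 genes with the smallest p per list and tissue, all called genes of a list with 6 or fewer, and, per tissue, the 5 genes above a mean log2 CPM of 3 most like the average of the 10. Other genes taken by this rule are not described. No 2 libraries of a group were duplicates (lowest chi-square per degree of freedom 3.53). Replicate numbers come from the sample titles. Same-numbered KO and WT hearts deviated together (r = 0.252, 0.365, 0.335 and 0.258, each above the 0.1 taken as pairing). Some unequal numbers within hearts 1 and 2 or within 3 and 4 did so as strongly (0.446 for KO 2 with WT 1, 0.317 for KO 4 with WT 3), so the values do not separate pairing by number from those sets. The block changed no heart call of the 10. Same-numbered gWAT libraries did not (−0.115, −0.206 and 0.0121). Alternatives were RLE scaling, library totals, no filter, a mean count of at least 10, DESeq2, limma-voom, 1 fit of all libraries, the replicate block, heart number sets, and leaving out each library.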

Additional observations from a re-analysis of the deposited data

Results flagged for a closer look

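In WT hearts, replicate 3 stood apart from the other 3 for both Nr4a1 (39.3 CPM) and Fos (35.6 CPM). Its gap to the nearest of the others took up 0.847 of the group's whole range for Nr4a1 and 0.846 for Fos, both above Dixon's 95% critical value for 4 samples. Of the groups of 4 or more samples, 20 were looked at, and chance flags about 1 in 20. KO heart 3 was also the highest of its group for both genes, at 37.9 CPM for Nr4a1 and 47.7 CPM for Fos.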

How the results depend on the processing

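None of the 10 genes passed in heart under any of 20 alternatives, and none in the interaction under any of 21. In heart the count of all called genes (1) was 3 without a filter, 2 with DESeq2, 2 with a covariate for hearts 1 and 2 against 3 and 4, and 17 within hearts 3 and 4. In gWAT the count of 834 was 1600 without a filter, 1769 with DESeq2, 477 with limma-voom and 1725 in 1 fit of all libraries, and 0 to 2908 when single libraries were left out. Of the 10 genes, 2 passed without a filter or with DESeq2, 0 with limma-voom, and 0 to 2 when single libraries were left out. With the replicate number as a block in gWAT, where the numbers did not pair the libraries, 0 genes passed in all and 0 of the 10, with Atf3 at −1.89 (adjusted p = 0.1) and Fos at −0.82 (adjusted p = 0.277). In the interaction, 533 genes passed without a filter, 669 with DESeq2, 69 with limma-voom and 3 to 1315 with single libraries left out, against 184. Between tissues, 3 of the 10 passed on library totals and 4 to 8 with single libraries left out. Signs changed only for values that had not passed, and the cause was not tested. In heart, Nr4a1 was −0.003172 with the covariate for number sets and −0.10 within hearts 1 and 2, and Fosb was 0.21 within hearts 1 and 2 and 0.36 with the atrial covariate, which was chosen after seeing the data. Within hearts 3 and 4, Nr4a2 was 0.36, Nr4a3 0.01716, Junb 0.081 and Atf3 0.26. In the interaction, Junb was 0.002438 with RLE scaling, 0.011 without a filter, 0.005077 with DESeq2 and 6.792e-06 with limma-voom, and Ier2 −0.085 on library totals. Between tissues, Nr4a2 was −0.16, Jun −0.31 and Junb −0.58 on library totals, and Junb was −0.044 without a filter, −0.035 with limma-voom and −0.21 with the block. With single libraries left out, heart values ran from −0.18 to 0.24 for Nr4a1, −0.47 to 0.035 for Nr4a2, −0.33 to 0.21 for Junb, −1.13 to 0.089 for Atf3, −0.92 to 0.26 for Fosb, −0.11 to 0.24 for Ier2 and −0.14 to 0.45 for Egr1. In gWAT they ran from −0.15 to 0.45 for Nr4a1, −0.0503 to 0.63 for Fosb, −0.005844 to 0.22 for Jun, −0.11 to 0.30 for Ier2 and −0.35 to 0.15 for Junb. In the interaction they ran from −0.31 to 0.25 for Junb, −0.18 to 0.22 for Ier2, −0.16 to 0.44 for Nr4a1, −0.041 to 1.14 for Fosb and −0.007959 to 0.58 for Egr1, and between tissues from −0.30 to 0.26 for Junb. Depth limits Nr4a2 and, in gWAT, Nr4a3, which rest on 138 reads or fewer per group.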
